A study of Mus musculus with 112 samples.

Results

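Hmga2, Igf2bp1, Igf2bp2, Igf2bp3, Lin28b and Igf2 are 6 genes of the embryonic growth programme, most active before birth and found again in many carcinomas. They were chosen by name and followed across skin, benign, malignant and metastatic tumours of mice treated with chemical carcinogens. Each was matched by symbol through the platform annotation to probe sets that name a single gene, and where a gene had several, the brightest on average was used. 5 of the 6 members had such a probe set, among 18772 genes measured in this way, and Igf2bp2 was not analysed here. Hmga2 and Igf2 each had a further probe set that also names another transcript, and these were left out.

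HMGA2 is an architectural chromatin protein that binds AT-rich DNA. LIN28B is an RNA-binding protein that blocks the maturation of the let-7 microRNAs, and let-7 in turn represses Hmga2, Lin28b and the Igf2bp messages through sites in their 3′ untranslated regions, so that loss of let-7 or gain of Lin28b can release the group. IGF2BP1, IGF2BP2 and IGF2BP3 bind and stabilise messenger RNAs, among them that of Igf2, an imprinted fetal growth factor that acts through the IGF1 receptor and is cleared by IGF2R.

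The let-7 microRNAs are shown because they repress Hmga2, Lin28b and the Igf2bp messages and share a seed. No target site in the members was examined here. The mature sequences below come from RefSeq (GRCm38.p6), written 5′ to 3′, with bases 2 to 8, the seed, in capitals. The 11 mature 5p entries of the family used here, which hold 9 distinct sequences, carry this same seed. The family has 12 hairpin genes, and no mature entry of Mirlet7a-2 was among those used.
let-7a-5p: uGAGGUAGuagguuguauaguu
let-7c-5p: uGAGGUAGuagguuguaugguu
let-7d-5p: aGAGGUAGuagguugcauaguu
let-7f-5p: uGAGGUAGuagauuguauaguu
miR-98-5p: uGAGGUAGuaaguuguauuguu
On that build the mature let-7d lies at chr13:48536078-48536099 and the let-7f of the Mirlet7f-1 hairpin at chr13:48537889-48537910, both on the minus strand. The let-7c copies lie at chr16:77599672-77599693 (Mirlet7c-1) and chr15:85706616-85706637 (Mirlet7c-2), both on the plus strand.

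The mice were 15 males of the FVBBX cross, in which F1 animals of Mus spretus and FVB were mated back to FVB, so that each mouse carries its own mix of alleles. All of them, controls included, received a single dose of the carcinogen DMBA at 8 weeks of age and then the tumour promoter TPA 2 times a week. Primary tumours were resected once above 1 cm, and metastases were taken when metastatic disease called for sacrifice. 9 mice were wild type (WT) and 6 lacked Hras (HrasKO), the gene that DMBA most often activates in this model. Hras itself was not analysed here, so the genotype labels were not checked against it.

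The 112 arrays comprised dorsal skin (15 arrays of 15 mice, 9 WT and 6 HrasKO), papillomas (27 arrays of 13 mice, 9 WT and 4 HrasKO), squamous cell carcinomas (SCC; 10 arrays of 8 mice, all WT), spindle carcinomas (12 arrays of 10 mice, 6 WT and 4 HrasKO) and carcinomas of mixed histology (3 arrays of 3 mice, 1 WT and 2 HrasKO). Metastases were labelled SCC (24 arrays of 11 mice, 8 WT and 3 HrasKO), spindle (20 arrays of 7 mice, 3 WT and 4 HrasKO) or mixed (1 array of a WT mouse). They came from lymph nodes (24 arrays), lung (10), liver, spleen and thymus (3 each), kidney (1) and a site labelled only dorsal (1). The skin is from the tumour-bearing animals, so it is not untreated tissue. Tumours of 1 mouse share its genome and treatment, so arrays of 1 mouse and group were averaged, and n counts mice. Levels are the authors' RMA values, log2 of probe set intensity, with array medians from 5.89 to 6.36, and they order the samples for 1 gene but not genes against each other.

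Across all genes, arrays were set against the averages of skin, papilloma, SCC and spindle tumours, with carcinomas and metastases of a histology pooled. Of 108 arrays, 22 were closer to the average of another class than to that of their own. These were 8 of 10 SCC carcinomas, all closest to papilloma, 7 of 24 SCC metastases, 6 of 27 papillomas and 1 of 12 spindle carcinomas. The pooled SCC average holds 24 metastasis arrays beside 10 carcinoma arrays, and the part of metastatic sites in it was not tested. Skin differed from the tumours in cell type markers: all 12 skeletal muscle markers fell from skin to papilloma (median log2 difference -2.99), as did 10 of 11 hair follicle and 7 of 8 adipocyte markers. In bulk samples, fewer cells of a type and less RNA per cell cannot be told apart. All 10 keratinocyte markers fell and all 10 macrophage markers rose (median 1.41) from skin to spindle carcinoma. The part of these differences in the member values was not tested.

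Hmga2 was low in skin and high in every tumour class. In the 15 skin samples its lowest level was 5.18, its median 5.74 and its highest 9.72, with a mean of 6.13 ± 1.12 (SD, n = 15). The highest skin, that of mouse 2022, stood well above the next at 7.01, and without it the mean was 5.87 ± 0.54 (SD, n = 14).

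Papillomas ran from 8.02 (mouse 1984) through a median of 9.40 to 11.03 (mouse 1815), with a mean of 9.32 ± 0.82 (SD, n = 13). SCC carcinomas ran from 9.00 through a median of 10.22 to 10.69, with a mean of 10.07 ± 0.55 (SD, n = 8). Spindle carcinomas ran from 10.03 (mouse 1949) through a median of 11.16 to 11.58 (mouse 1537), with a mean of 11.09 ± 0.47 (SD, n = 10). The 3 mixed carcinomas, at 11.77, 10.99 and 10.87, lay within the range of the spindle tumours or above it. All 12 spindle carcinoma arrays exceeded the highest skin sample, as did 8 of 10 SCC carcinoma arrays and 7 of 27 papilloma arrays. The share of all genes that exceed skin in so many arrays was not counted. The left-out probe set, which names Hmga2 with another transcript, averaged 4.78 in skin and 5.16 in papillomas. In SCC and spindle carcinomas it averaged 5.14 and 5.15. This much smaller change was not tested.

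**Figure D1:**
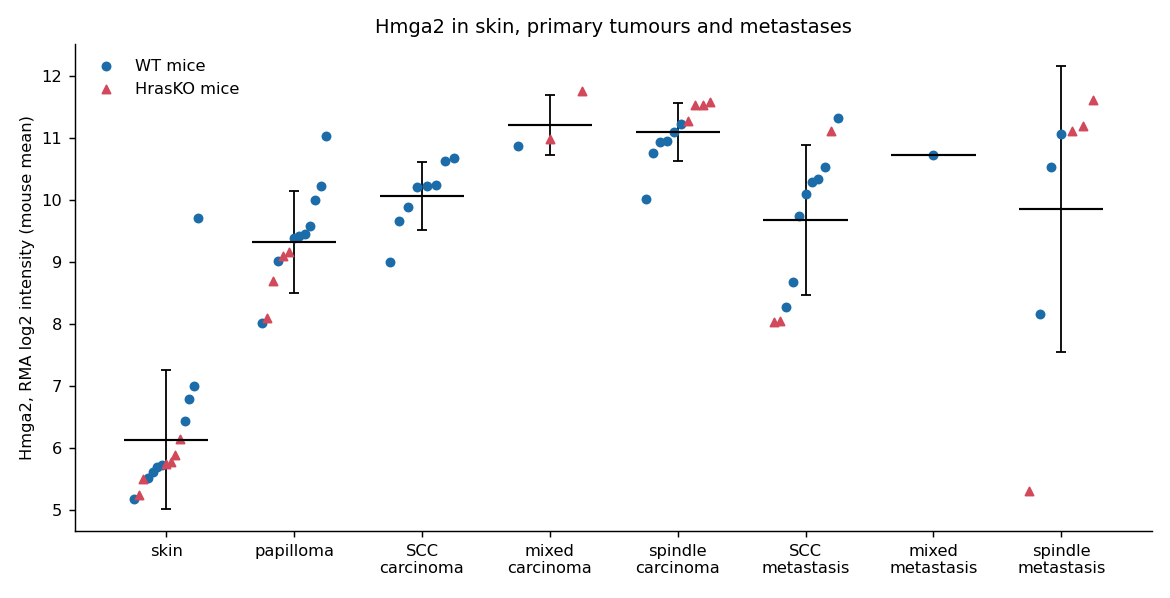
Hmga2 level (log2 RMA value, vertical axis) by tissue class, with a point for each mouse mean, coloured by genotype, and the mean and SD of each class. Skin lies at or below 7.01 apart from a sample at 9.72, spindle carcinomas lie between 10.03 and 11.58, and spindle metastases run from 5.31 to 11.61.

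Set against each animal's own skin, Hmga2 rose in papillomas by 3.14 (log2 difference; SE 0.33, 95% interval 2.43 to 3.84; 8.79-fold), in 12 of 13 mice (limma, adjusted p = 7.34e-06). The exception was mouse 2022, whose skin held the highest level. In SCC carcinomas Hmga2 rose by 3.67 (SE 0.42; 12.7-fold) in 8 of 8 mice (adjusted p = 0.000393). Spindle carcinomas showed a rise of 4.67 (SE 0.42, interval 3.76 to 5.59; 25.5-fold) in 10 of 10 mice (adjusted p = 1.18e-05), and here the levels of tumours and skins did not overlap. How many of all genes separate in this way was not counted. Skin and tumours differed widely in general: 42.6% of all genes passed the same test in papillomas, 30.6% in SCC carcinomas and 46.7% in spindle carcinomas. Of the 5 measured members, 3 passed in papillomas, 1 in SCC carcinomas and 3 in spindle carcinomas.

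Among tumours the levels of Hmga2 were ordered papilloma, SCC carcinoma, spindle carcinoma. From papilloma to spindle carcinoma of the same mice Hmga2 rose by 1.77 (SE 0.34, interval 1.01 to 2.54; 3.42-fold) in 9 of 9 mice (adjusted p = 0.00974), where 23.8% of all genes passed and Hmga2 was the only member among them. This call was lost when carcinomas titled RegCA, an abbreviation that the labels do not explain, were left out (2.1, adjusted p = 0.0822), a setting in which 0 genes passed. Neighbouring classes did not pass: SCC carcinoma exceeded papilloma by 0.68 (interval 0.10 to 1.26) in 6 of 8 mice (adjusted p = 0.422), where 0.202% of all genes passed. Among WT mice, spindle carcinoma exceeded SCC carcinoma by 0.80 (interval 0.23 to 1.36; 6 mice against 8; adjusted p = 0.0777), where 7.56% of all genes passed. Without mouse 1949 this last difference was 1.04 (adjusted p = 0.00957), a setting in which 3678 genes passed. The other 8 leave-one-mouse-out fits did not pass. Over all 9 the difference ran from 0.63 to 1.04, with adjusted p up to 0.201. The spindle carcinoma of mouse 1949, the lowest of its class in Hmga2, had a mean keratinocyte marker level of 11.19, and whether it holds squamous tissue was not tested.

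Papillomas of 1 mouse were mostly alike in Hmga2, with a median range of 0.27 over the 11 mice with several. In mouse 1815 the papillomas reached 11.11 and 10.95, levels of spindle carcinomas, and their keratinocyte marker means were 5.29 and 6.32. In mouse 1984 a papilloma read 5.69 beside others at 9.52 and 8.86. That array had a keratinocyte marker mean of 6.11, a skeletal muscle mean of 9.00 and a macrophage mean of 10.74. Without the arrays that stand apart, the papilloma rise was 3.19 and the spindle carcinoma rise over papilloma was 1.90 (adjusted p = 0.000191).

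Lin28b was at the bottom of the scale in skin, and its rise was small on average but large in a few tumours. Skin lay between 3.72 and 3.92 in all 15 mice, with a median of 3.78. Papillomas ran from 3.80 through a median of 4.10 to 5.50, with a mean of 4.22 ± 0.47 (SD, n = 13), and 9 of 13 mice exceeded the highest skin. The share of all genes that exceed skin in so many mice was not counted. The rise over skin was 0.42 (log2 difference; SE 0.12; 1.33-fold), with papillomas higher in 13 of 13 mice (adjusted p = 0.0144).

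SCC carcinomas ran from 3.74 through a median of 4.14 to 5.46 and exceeded their skins by 0.56 in 7 of 8 mice, which missed the threshold (adjusted p = 0.0536). Spindle carcinomas ran from 3.75 through 4.13 to 4.53, a rise of 0.25 over skin (SE 0.08) in 8 of 10 mice (adjusted p = 0.0275). Leaving out mouse 1407, 1537 or 1664 took this call past the threshold (adjusted p = 0.0579, 0.0523 and 0.0579). The mixed carcinomas, at 5.73, 4.47 and 4.08, were all above the highest skin. Between spindle and SCC carcinomas the difference was -0.30 (adjusted p = 0.518). Without the arrays that stand apart, which leaves 2 SCC carcinoma arrays, it was -1.26 (adjusted p = 0.00838), and -0.35 (adjusted p = 0.4) with the SCC arrays close to papilloma kept.

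High Lin28b values came from a few mice. The median range within a mouse was 0.35 in papillomas (11 mice) and 0.22 in spindle metastases (5 mice), but 1.55 in SCC metastases (7 mice). In mouse 1508 both papillomas were high, at 5.48 and 5.53, and its SCC carcinoma read 4.65. In mouse 1383 the SCC carcinoma read 5.46, lymph node metastases 5.20 and 5.40 and a lung metastasis 5.15, while the liver and thymus metastases read 4.12 and 3.80. Mouse 1456 showed the reverse order, with an SCC carcinoma at 3.92, a lung metastasis at 5.18 and a thymus metastasis at 6.03. The highest array of all, at 6.53, was a lymph node metastasis of mouse 1616, whose mixed carcinoma read 4.47 and whose lung metastasis read 3.58. No difference between metastasis and carcinoma passed for Lin28b: it was -0.05 for SCC and -0.12 for spindle tumours (adjusted p = 0.381).

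Igf2 varied widely among tumours, and no difference between classes passed. Skin ran from 6.14 through a median of 6.86 to 7.56, with a mean of 6.80 ± 0.53 (SD, n = 15). Papillomas ran from 5.75 to 9.59 (mean 7.11 ± 1.13, n = 13), SCC carcinomas from 5.72 to 10.61 (7.42 ± 1.51, n = 8) and spindle carcinomas from 5.06 to 9.07 (6.67 ± 1.32, n = 10). The differences from skin were 0.28 (adjusted p = 0.45), 0.72 (interval -0.42 to 1.85, adjusted p = 0.308) and -0.15 (adjusted p = 0.701).

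**Figure D2:**
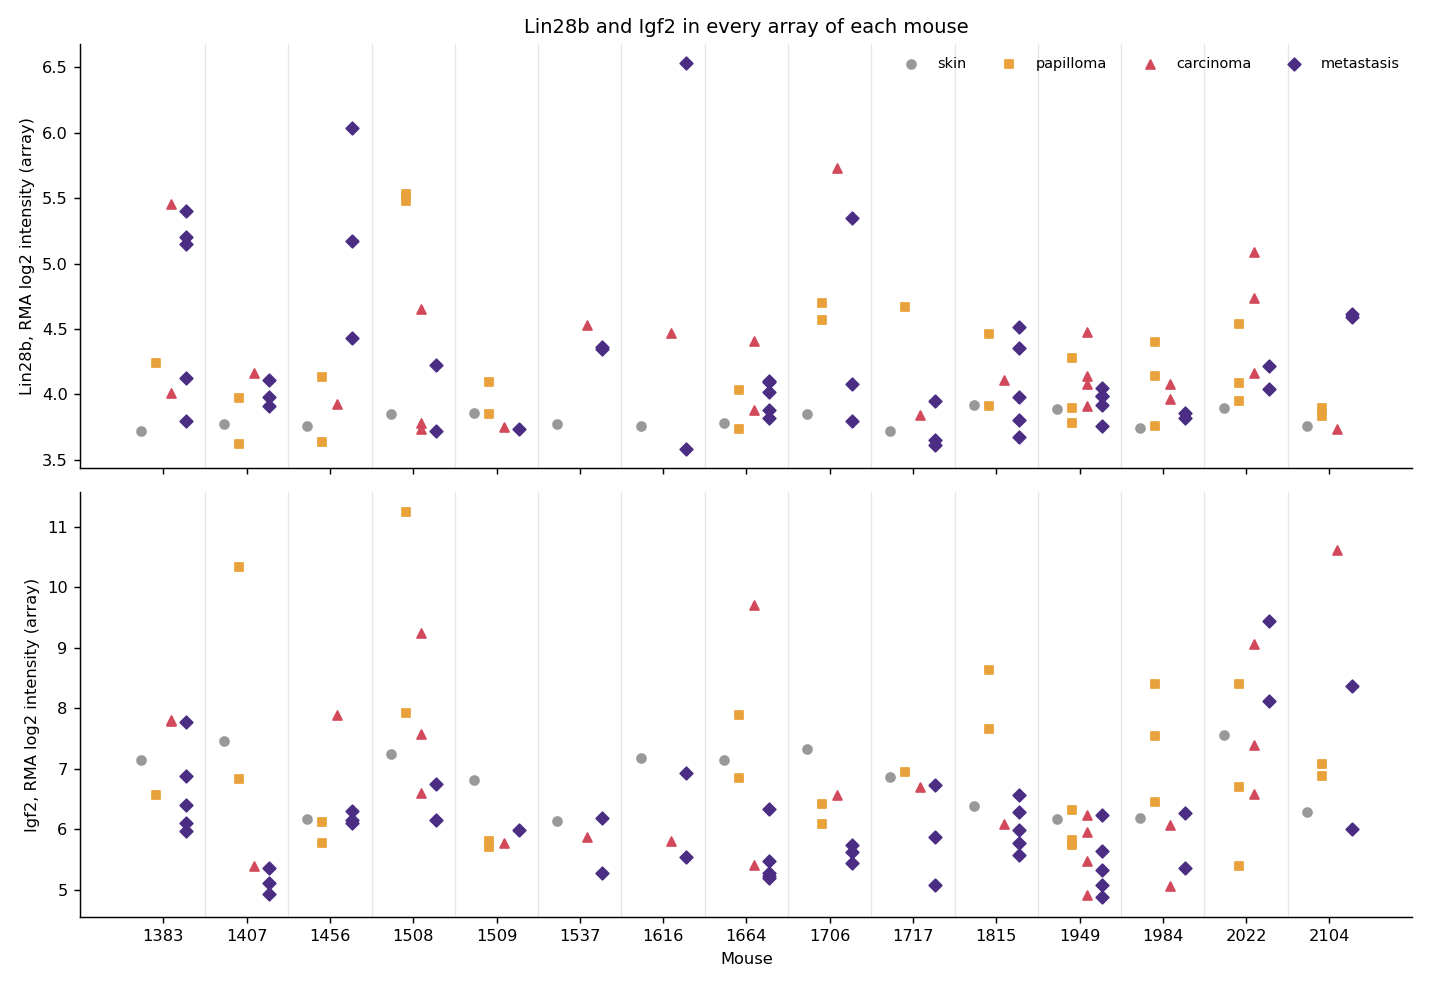
Lin28b and Igf2 levels (log2 RMA values, vertical axes) of every array, by mouse (horizontal axis), with colours for skin, papilloma, carcinoma and metastasis. Lin28b in skin stays between 3.72 and 3.92 while tumours of a few mice reach 5.46 to 6.53, and Igf2 runs from 6.01 to 10.61 among the tumours of mouse 2104.

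High Igf2 occurred in some tumours of a mouse and not in others. The SCC carcinoma of mouse 2104 read 10.61, its lymph node metastasis 8.37 and its dorsal metastasis 6.01. In mouse 2022 the spindle carcinoma read 9.07 and the SCC carcinomas 7.39 and 6.58. Its lymph node metastases, both labelled SCC, read 8.12 and 9.44. In mouse 1664 the spindle carcinomas read 5.41 and 9.70, and in mouse 1508 they read 9.24 and 6.60. The papillomas of mouse 1508 read 11.25 and 7.92, and the former had a muscle marker mean of 4.81. A papilloma of mouse 1407 at 10.34 had a muscle marker mean of 10.51, and the part of muscle in its Igf2 level was not tested.

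Igf2 was lowest in spindle metastases, where the mouse means ran from 5.13 to 6.03 (mean 5.56 ± 0.36, n = 7), all below the lowest skin at 6.14. By single array 16 of 20 lay below it. Spindle metastases were not fitted against skin, and how many of all genes separate in this way was not counted. SCC metastases ran from 5.60 to 8.78 (6.50 ± 0.89, n = 11). The difference between the histologies was -0.80 (spindle minus SCC; interval -1.50 to -0.10), with an unadjusted limma p of 0.0276 and an adjusted p of 0.217.

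The Igf2 mRNA-binding genes showed little. Igf2bp3 was near the bottom of the scale everywhere and highest in skin, where it ran from 3.91 through 4.12 to 4.67. It fell by 0.25 on the log2 scale in papillomas (SE 0.07, lower in 11 of 13 mice; adjusted p = 0.0128) and by 0.31 in spindle carcinomas (SE 0.08, lower in 10 of 10 mice; adjusted p = 0.0057). In SCC carcinomas the difference was -0.25 (adjusted p = 0.0734). All tumour classes had means between 3.85 and 3.93 and no comparison between them passed.

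Igf2bp1 was read by a pair of probe sets that differed. The one used, with the higher mean, gave 4.26 ± 0.20 in skin, 4.44 ± 0.14 in papillomas, 4.59 ± 0.47 in SCC carcinomas and 4.49 ± 0.23 in spindle carcinomas. Its differences from skin were 0.17 (adjusted p = 0.0917), 0.33 (0.155) and 0.20 (0.116), and the highest mouse was 1508 with an SCC carcinoma at 5.67. The other probe set gave 3.51 ± 0.13 in skin, 4.11 ± 0.44 in papillomas, 4.27 ± 0.71 in SCC carcinomas and 3.59 ± 0.13 in spindle carcinomas. By that probe set 11 of 13 mice with papillomas and 6 of 8 with SCC carcinomas exceeded the highest skin, against 1 of 10 with spindle carcinomas. Its skin values spanned only 3.29 to 3.72, near the bottom of the scale. The share of all probe sets that exceed skin in so many mice was not counted. With the mean of both probe sets, Igf2bp1 rose in papillomas by 0.38 (adjusted p = 0.0037) and in SCC carcinomas by 0.55 (adjusted p = 0.0438). The probe set used also passed in papillomas without the arrays that stand apart (0.22, adjusted p = 0.0192) and with quantile normalization repeated (0.15, adjusted p = 0.0434), and in spindle carcinomas with the latter (0.24, adjusted p = 0.0301).

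**Figure D3:**
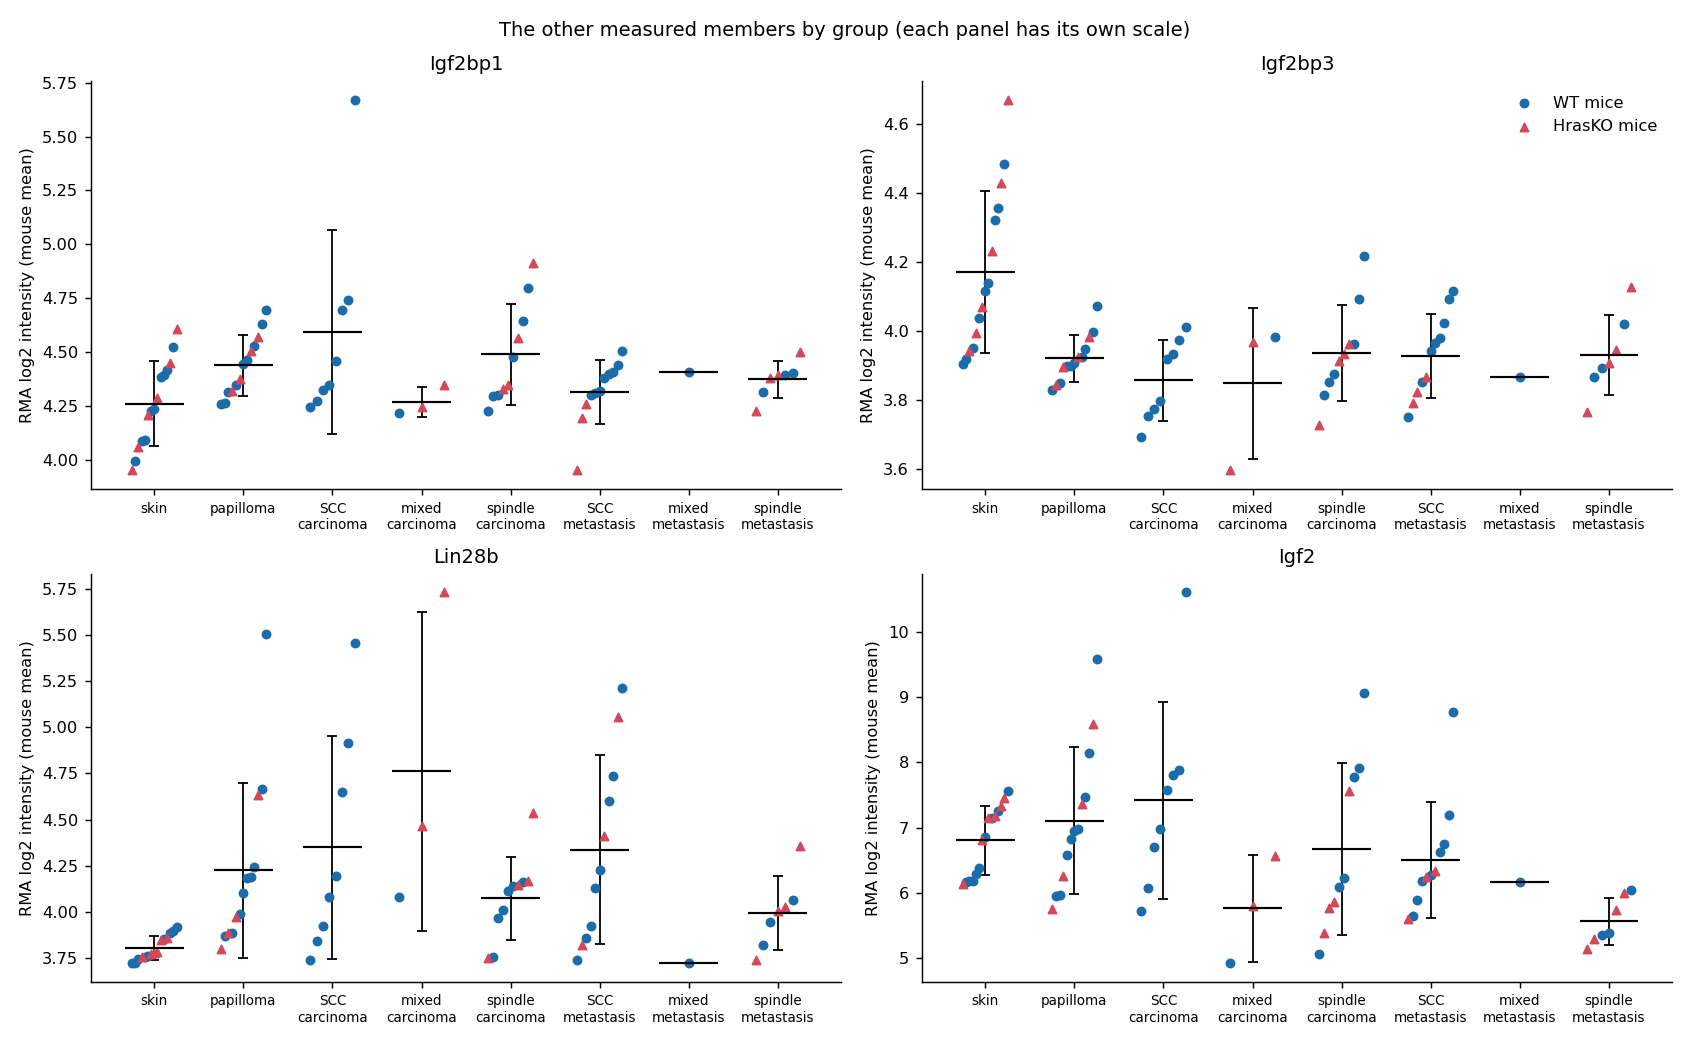
Levels (log2 RMA values, vertical axes) of Lin28b, Igf2, Igf2bp1 and Igf2bp3 by tissue class, with a point for each mouse mean and the mean and SD of each class. Lin28b lies above its narrow skin range of 3.72 to 3.92 in most tumours, Igf2 mouse means run from 5.06 to 9.07 in spindle carcinomas but only from 5.13 to 6.03 in spindle metastases, and the 2 binding-protein genes stay near the bottom of the scale.

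**Figure D4:**
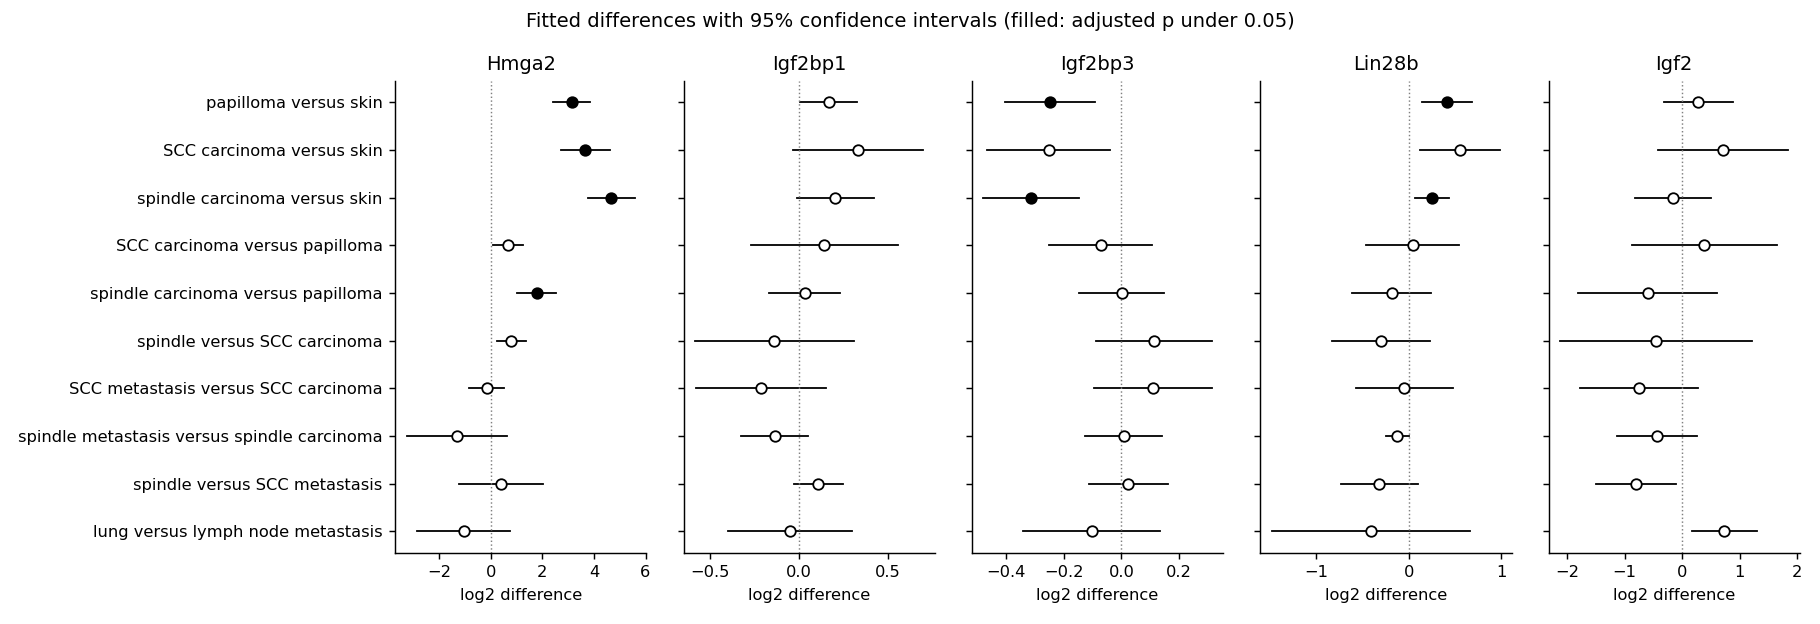
Log2 difference (horizontal axis) of each measured member, a panel each, in every comparison other than those of genotype (vertical axis), with the 95% interval of limma and a filled mark where the adjusted p was under 0.05. Hmga2 stands at 3.14, 3.67 and 4.67 against skin, and the estimates of the other members stay within 1 log2 unit of 0 in those comparisons.

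In papillomas and spindle carcinomas, genes that produce or destroy let-7 passed in shares near those of all genes. Of 14 measured genes of the let-7 pathway, 3 rose and 3 fell in papillomas against skin, where 42.6% of all genes passed (median difference -0.07, against 0.05 over all genes). Xpo5, the exporter of hairpin precursors, rose by 0.32 and Drosha, the nuclear nuclease that cuts them free, by 0.30. Tut4 and Tut7, which add uridines to hairpins held by LIN28 proteins, fell (log2 differences -0.97 and -0.20). Lin28a, the paralogue of Lin28b, rose by 0.19 in papillomas and by 0.29 in SCC carcinomas. In spindle carcinomas, where 46.7% of all genes passed, 5 of the 14 rose and 2 fell, with Drosha at 0.70 and its partner Dgcr8 at 0.34.

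The let-7 hairpin genes that passed against skin fell, apart from Mirlet7a-2. In papillomas 4 of 11 measured Mirlet7 genes fell and 0 rose (median -0.11), beside 18.1% of all genes that fell and 24.5% that rose, with log2 differences of -0.87 for Mirlet7c-1, -0.80 for Mirlet7d, -0.62 for Mirlet7f-1 and -0.24 for Mirlet7c-2. These are the copies whose mature sequences and positions are given above. SCC carcinomas had the same count, 4 fallen and 0 risen, beside 15.0% and 15.6% of all genes. In spindle carcinomas Mirlet7d and Mirlet7c-1 fell (-0.54 and -0.43), while Mirlet7a-2 rose by 0.23. These probe sets read transcripts over the hairpin, not the mature microRNA, and this list was added after the files had been seen.

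Of 14 measured oncofetal targets of let-7 other than the members, 4 rose and 0 fell in papillomas, where 24.5% of all genes rose and 18.1% fell, and their median was 0.02 against 0.05 over all genes. E2f8, an atypical cell-cycle E2F factor, rose by 2.29 in papillomas, 2.47 in SCC carcinomas and 2.92 in spindle carcinomas. Ccnd1, cyclin D1, rose by 1.91, 1.77 and 2.54. In spindle carcinomas E2f5 rose by 0.71, while Ccnd2, another D-type cyclin, (-0.92) and Nr6a1, an orphan nuclear receptor of the embryo (-0.81), fell. Ccnd1 was also higher in spindle than in SCC carcinomas, by 0.47.

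Of 16 measured genes of IGF signalling, 1 rose and 6 fell in papillomas (median -0.23), 1 rose and 3 fell in SCC carcinomas and 3 rose and 6 fell in spindle carcinomas. Over all genes 18.1%, 15.0% and 19.2% fell in these classes and 24.5%, 15.6% and 27.5% rose. Igf2r, the receptor that removes IGF2, rose by 0.70, 1.06 and 1.34. Igf1r, the signalling receptor, rose by 0.53 in spindle carcinomas. Igfbp5, an IGF-binding protein, fell in all 3 classes (-2.58, -2.95 and -2.78), as did Pappa2, a protease of such proteins (-1.43, -1.96 and -1.36). Igfbp2 fell by 2.73 and Igfbp4 rose by 1.36 in spindle carcinomas against skin. Igfbp6 was higher in spindle carcinomas than in papillomas by 1.74 and than in SCC carcinomas by 2.38.

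Of 13 measured genes of the imprinted network to which Igf2 belongs, 2 rose and 8 fell in papillomas (median -1.15), 3 rose and 5 fell in SCC carcinomas (median -1.0) and 3 rose and 8 fell in spindle carcinomas (median -1.60). Over all genes the medians were 0.05, 0.06 and 0.08, and 18.1%, 15.0% and 19.2% fell. Nnat and Peg3, paternally expressed genes, fell in papillomas (-2.28 and -1.91). Gpc3, a glypican that restrains growth, and Plagl1, a zinc finger factor of the network, fell in spindle carcinomas (-2.86 and -2.39). Mest rose by 3.30 in SCC and by 2.90 in spindle carcinomas and fell by 1.57 from SCC carcinomas to their metastases. Dlk1 rose by 0.68, 0.75 and 0.62 in the 3 tumour classes. Muscle, fat and hair follicle markers fell beside this list, as given above, and their part in it was not tested.

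No member passed between metastases and their carcinomas. For Hmga2 in SCC tumours the difference was -0.16 (metastasis minus carcinoma; interval -0.85 to 0.53; higher in 5 of 8 mice; adjusted p = 0.841), where 4.55% of all genes passed. In spindle tumours it was -1.33 (interval -3.26 to 0.61; higher in 2 of 7 mice; adjusted p = 0.508). There limma called 0% of all genes at the adjusted threshold, although 2495 genes had an unadjusted p under 0.05. Spindle metastases exceeded SCC metastases by 0.39 (interval -1.24 to 2.02, adjusted p = 0.829), where 0.0693% of genes passed. In lymph nodes alone the difference was 1.46 (adjusted p = 0.0457), a setting in which 2213 of 18772 genes passed.

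The lowest Hmga2 levels of metastases came with high levels of B cell markers. SCC metastases ran from 8.04 (mouse 1616) through a median of 10.09 to 11.32 (mouse 1949), and spindle metastases from 5.31 (mouse 1509) through 11.07 to 11.61 (mouse 1664). The SCC-labelled lung metastases of mice 1949 and 1664, at 11.32 and 11.11, had keratinocyte marker means of 5.73 and 6.26. Across all genes both were closest to the spindle class. Hmga2 at the level of skin occurred in a lung metastasis of mouse 1509 (5.31), the spleen and liver metastases of mouse 1815 (5.35 and 5.57), a lung metastasis of mouse 1616 (5.61) and a lymph node metastasis of mouse 1706 (5.76). Their mean B cell marker levels lay between 9.63 and 10.88. The 7 arrays of 4 mice with a B cell mean above 9 had Hmga2 from 5.31 through a median of 5.61 to 11.05. The other 38 arrays of 14 mice had Hmga2 from 7.6 through a median of 10.77 to 11.76. The array at 7.6, a kidney metastasis of mouse 1815, had a B cell mean of 5.39. Its fibroblast, endothelial and adipocyte marker means were 11.27, 9.89 and 9.40, and its keratinocyte mean was 4.84.

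**Figure D5:**
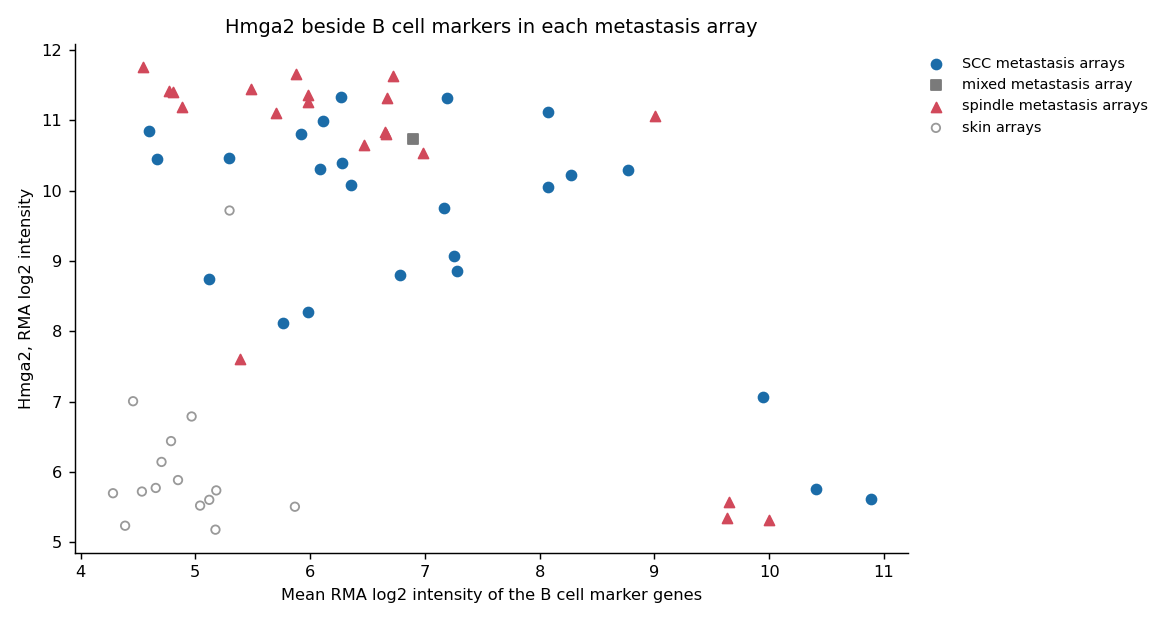
Hmga2 level (log2 RMA value, vertical axis) of each metastasis array against the mean level of the B cell markers (log2, horizontal axis), coloured by histology, with the skin arrays as open circles. All 5 metastasis arrays with Hmga2 under 6 have a B cell mean above 9, and those with a B cell mean up to 9 lie between 7.6 and 11.76.

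Over the same split, the keratinocyte marker means were 5.42 to 6.78 in the 7 arrays and 4.79 to 11.09 in the others, and the T cell means 7.88 to 9.67 against 4.84 to 8.23. The split did not hold in every array: a lymph node metastasis of mouse 1815 had Hmga2 at 11.05 with a B cell mean of 9.00. Within mouse 1706, 3 lymph node metastases ran from 5.76 and 7.06 at B cell means of 10.41 and 9.95 to 11.32 at 6.27. Without those 7 arrays, an alternative chosen after seeing the data, the spindle metastasis difference from carcinoma was -0.30 (adjusted p = 0.788). How much of each such array is tumour was not tested.

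Between lung and lymph node metastases of the same mice Hmga2 differed by -1.05 (lung minus lymph node; interval -2.85 to 0.76; adjusted p = 0.957), and by -0.10 without the arrays of high B cell signal. Igf2 differed by 0.74 (interval 0.17 to 1.30), with an unadjusted limma p of 0.0171 and an adjusted p of 0.678. Limma called 0% of all genes in this comparison, with 1155 genes at an unadjusted p under 0.05.

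The genotype of Hras made no difference that passed for any member. In skin Hmga2 was 5.71 ± 0.31 in HrasKO and 6.41 ± 1.39 in WT mice (adjusted p = 0.686), and in papillomas 8.76 ± 0.49 and 9.57 ± 0.83. The rise from skin to papilloma was 3.07 ± 0.46 in HrasKO and 3.17 ± 1.55 in WT mice, and the fitted difference between these rises was -0.13 (adjusted p = 0.971). In skin and in papillomas 0.00533% of genes passed, and in the test of the rises limma called 0%, with 1419 genes at an unadjusted p under 0.05.

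In spindle carcinomas Hmga2 was 11.48 ± 0.14 in 4 HrasKO mice and 10.84 ± 0.43 in 6 WT mice. The fitted difference was 0.72 (HrasKO minus WT; interval 0.18 to 1.26), with an unadjusted limma p of 0.0148 and an adjusted p of 0.991. Mouse 1664 (HrasKO) was the only mouse of batch 2 in this fit. With batch as a covariate, the fitted difference therefore rests on the other HrasKO mice against the WT mice. Limma called 0% of genes there, with 626 at an unadjusted p under 0.05. In SCC metastases Hmga2 was 9.07 ± 1.77 in 3 HrasKO and 9.91 ± 1.00 in 8 WT mice, a fitted difference of -1.10 (adjusted p = 0.587), where 0.154% of genes passed. Without the arrays of high B cell signal that difference was 1.06 (adjusted p = 0.692). Of these HrasKO arrays, all of mice 1706 and 1664 and the lung array of mouse 1616 were closest to the spindle class across all genes. Igf2bp1, which lay near the bottom of the scale, differed by -0.23 between the genotypes in SCC metastases (unadjusted limma p = 0.0422, adjusted p = 0.372). In spindle metastases Hmga2 was 9.81 ± 3.01 and 9.92 ± 1.55, and limma called 0% of genes, with 394 at an unadjusted p under 0.05. Mouse 1664 was again the only mouse of batch 2 in that fit.

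Within a class, no relation of Hmga2 with another member passed. Over 16 relations of Hmga2 with 4 members in skin, papilloma, spindle carcinoma and SCC metastasis, none was under 0.05 in a two-sided permutation test after Benjamini-Hochberg adjustment. The largest Pearson r was with Igf2 in skin (r 0.49, permutation p = 0.0316, adjusted 0.505; Spearman rho 0.44, adjusted permutation p = 0.536; n = 15). It was 0.51 in the 13 mice of batch 1 and 0.25 without mice 1383 and 2022, so it rests on those skins. By rank the largest was with Igf2 in spindle carcinomas (rho -0.61, adjusted permutation p = 0.536; r -0.36, adjusted permutation p = 0.812; n = 10), where r was -0.75 without mice 1537 and 1949 and -0.40 in the 9 mice of batch 1. For Lin28b in papillomas rho was 0.51 (adjusted permutation p = 0.536) and r 0.43 (adjusted permutation p = 0.788; n = 13).

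The genes whose level was most like that of Hmga2, over 64 mouse means of 15 mice in 6 classes, were Steap2 (r 0.93), a metalloreductase, Oaf (0.91), Peak1 (0.91), a cytoskeletal pseudokinase, Aprt (0.90), an adenine salvage enzyme, and Rbms1 (0.90), an RNA-binding protein. These values share the difference between skin and tumour and are a description. After subtraction of each class mean the highest were Wwtr1 (0.83), which encodes the Hippo pathway coactivator TAZ, Steap2 (0.82), Synj2 (0.81), Rbfox2 (0.81), a splicing factor, and Tead1 (0.80), a DNA-binding partner of TAZ. This list too is a description. Some mouse means lay far from their class mean in Hmga2, as in the spindle metastasis of mouse 1509 (5.31 against 9.86) and the skin of mouse 2022 (9.72 against 6.13). Their part in these r values was not tested. Over the same 64 means Hmga2 had r of 0.37 with Lin28b, 0.32 with Igf2bp1, -0.50 with Igf2bp3 and -0.03 with Igf2. Less the class means these were 0.16, 0.08, -0.07 and 0.02.

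No gene was as like the other members. The highest were Msgn1 (r 0.78) and Tbc1d21 (0.77) for Igf2bp1, and Fabp9 (0.72) and Zp2 (0.71) for Igf2bp3. For Lin28b they were Htr5b (0.62) and Il23a (0.61), and for Igf2 Csn1s1 (0.55) and Spock3 (0.53).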

How the data were processed

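The authors deposited log2 intensity values of 112 Affymetrix arrays, normalized with RMA per the submitters' processing notes, with no missing values. Neither the RMA version nor a genome build is given in the sources used here. Of 28204 probe sets, 21141 name 1 gene in the platform annotation, 1881 name several and 5182 are unnamed. Arrays of 1 mouse and class were averaged and fitted over all 18772 genes with limma 3.58.1 in R 4.3.3, with Benjamini-Hochberg adjusted p under 0.05 as the threshold and no filter on low values. Paired classes used the mouse, given by the labels, as a fixed block. Spindle against SCC used it as a random block, with genotype as a covariate in metastases, and genotype comparisons used batch as a covariate. Batch 2 held 2 mice, 17 arrays. Lung against lymph node had histology as a covariate.

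The members and gene lists were chosen with earlier results of these data known. All members were named, with up to 3 rising and 3 falling genes of each list per comparison, and the genes most like each member by Pearson r over mouse means (5 for Hmga2 before and after subtraction of class means, 2 for each other; predicted and small RNA genes left out). The let-7 hairpin list and 3 alternatives (SCC arrays close to papilloma kept, metastases of B cell mean above 9 left out, the skin of mouse 2022 left out) were added after seeing the data. Correlations used 100000 resamples. The fits were tested on simulated data. Igf2bp2 and Hras were not analysed here.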

Additional observations from a re-analysis of the deposited data

Results flagged for a closer look

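Within classes of 4 to 10 mice, 55 sets of member values were examined for a mouse far from the others, and 8 were found. Chance alone gives about 1 in 20 sets, and the sets overlap because genotypes are parts of classes. For Hmga2 these were the spindle carcinoma of mouse 1949 (10.03, the nearest other at 10.76), the WT skin of mouse 2022 (9.72 against 7.01), the HrasKO spindle carcinoma of mouse 1664 (11.28 against 11.54) and the HrasKO spindle metastasis of mouse 1509 (5.31 against 11.11). Igf2bp1 was high in the SCC carcinoma of mouse 1508 (5.67 against 4.74). Lin28b was high in the spindle carcinoma of mouse 1537 (4.53 against 4.17) and in the WT papillomas of mouse 1508 (5.50 against 4.67). Igf2 was high in the SCC carcinoma of mouse 2104 (10.61 against 7.88). The skin of mouse 2022 had a keratinocyte marker mean of 10.29 and a muscle marker mean of 9.05.

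Mixed carcinomas entered none of the fitted comparisons, and the mixed metastasis entered that of lung against lymph node alone. Hmga2 in the mixed carcinomas of mice 1616 (11.77), 1706 (10.99) and 1949 (10.87) and in the mixed metastasis of mouse 1508 (10.74) was above the highest skin at 9.72. Lin28b in the same carcinomas (4.47, 5.73 and 4.08) was above the highest skin at 3.92.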

How the results depend on the processing

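The direction of each called member held under every alternative run, and Hmga2 stayed past the threshold against skin in all of them, with leave-one-mouse-out ranges of 3.01 to 3.42 in papillomas, 3.46 to 4.12 in SCC carcinomas and 4.52 to 5.08 in spindle carcinomas. The number of members called changed in these settings. A filter on low values, which Igf2bp1, Igf2bp3 and Lin28b do not pass, left 1 in papillomas and 1 in spindle carcinomas against skin. Igf2bp1 joined, to give 4, in papillomas with the mean over probe sets, quantile normalization repeated or the arrays that stand apart left out, and in spindle carcinomas with quantile normalization. In SCC carcinomas against skin 3 were called from individual arrays and 3 without the replicate block (the mouse term; Lin28b 0.56, adjusted p = 0.0475, and Igf2bp3 -0.25, adjusted p = 0.0462). There 2 were called with the mean over probe sets, with eBayes trend and robust (Lin28b adjusted p = 0.0448) and with quantile normalization repeated (Igf2bp3 -0.31, adjusted p = 0.0161), and leaving out 1 mouse gave 1 to 2, with 2 without 1508 or 2104. Without RegCA carcinomas 1 was called against skin (Lin28b adjusted p = 0.152, Igf2bp3 0.0815) and 0 against papilloma in spindle carcinomas. Spindle against SCC carcinomas had 1 without arrays that stand apart (Lin28b -1.26, adjusted p = 0.00838, with Hmga2 at 0.61, adjusted p = 0.152). With SCC arrays close to papilloma kept 1 was called (Hmga2 0.92, adjusted p = 0.016), where 3679 genes passed. Leaving out 1 mouse gave 0 to 1, with 1 without 1949, where 3678 genes passed. Spindle against SCC metastases had 1 in lymph nodes alone, where 2213 genes passed. The cause was not tested where the setting itself does not give it. In batch 1 alone the Lin28b rise in spindle carcinomas was lost (adjusted p = 0.0579).

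Counts over all genes moved by over 1.5 times: SCC carcinoma against papilloma 38 (0 to 377), spindle carcinoma against papilloma 4470 (0 to 7912), spindle against SCC carcinoma 1419 (657 to 3679, but 1 without mouse 1984), SCC metastasis against carcinoma 854 (60 to 2216), spindle against SCC metastasis 13 (0 to 2213), spindle metastasis against carcinoma 0 (up to 68) and lung against lymph node 0 (up to 384). For HrasKO against WT, SCC metastases gave 29 (0 to 306 over all settings) and papillomas 1 (0 to 33 with 1 mouse left out). Without arrays that stand apart, too few mice were left to fit SCC carcinoma against skin or papilloma, SCC metastasis against carcinoma, or genotype in SCC metastases.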

Other observations

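Whether a member's level in a mouse's metastases followed that in its carcinomas was examined over 15 mice, a relation chosen after the values were seen, with histologies pooled, mixed tumours included, and 5 relations computed. Igf2bp1 did (Pearson r 0.68, adjusted permutation p = 0.0281; Spearman rho 0.65, adjusted permutation p = 0.026), with r 0.66 without mice 1508 and 1537 and 0.64 in the 13 mice of batch 1. Igf2 did by rank alone (r 0.58, adjusted permutation p = 0.104; rho 0.68, adjusted permutation p = 0.026), with r 0.57 without mice 1456 and 2104 and 0.64 in batch 1. Hmga2 (r -0.18), Lin28b (0.25) and Igf2bp3 (0.33, and -0.02 without mice 1407 and 1706) did not pass. For Igf2bp1 the probe set with the higher mean was examined here and the other was not. Its values lay near the bottom of the scale, and it did not pass the filter on low values. The mice segregate alleles of different origins, and their part in these relations was not tested.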
